A study of Mus musculus with 6 samples.

Results

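Autophagy and lysosome genes were compared between immortalized wild-type (WT) and Alport syndrome (AS) podocytes, the epithelial cells that cover the glomerular capillaries. The set holds 47 genes of the 57132 identifiers in the count table, taken from a list of lysosomal hydrolases, lysosomal membrane proteins, proton pump subunits and autophagy proteins by gene symbol, a rule that uses no measured value. Of the 47 genes, 3 are transcription regulators, 23 are lysosomal and 21 belong to the autophagy machinery. In addition, 139 other genes of the same pathways, arranged in 9 lists, are given as counts. Earlier results of these data were known when the genes and the lists were chosen.

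RNA-seq was performed on 3 samples of the IMWT line (Col4a3+/+) and 3 samples of the IMAS line (Col4a3-/-), which lacks Col4a3, the gene for the α3 chain of type IV collagen that is mutated in Alport syndrome. Both lines came from kidneys of 8-week-old male mice carrying the H-2Kb-tsA58 transgene, which supplies a temperature-sensitive SV40 large T antigen, and none of the samples received a drug. Cells were grown at 33 °C with 20 U/mL interferon gamma and differentiated for 14 days at 37 °C, as the sample records give it, while the published methods give other values for the medium, the interferon and the days. Only 1 cell line stood for each genotype, and genotype and line cannot be told apart. The samples of a genotype are called sets 1 to 3 (WT1 to WT3 and AS1 to AS3 here), and it is not stated whether a set is a separate culture, so p-values measure only the spread between these samples, which may be technical.

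The lysosome is an acidic organelle in which hydrolases degrade proteins, lipids and sugars. A rotary proton pump, the V-ATPase, acidifies its lumen, and membrane proteins such as LAMP1 and LAMP2 line it. Macroautophagy delivers cytoplasm to this compartment: the ULK1 kinase and the class III phosphatidylinositol 3-kinase complex start the autophagosome, a conjugation system attaches ATG8 proteins such as LC3 to its membrane, and cargo receptors bind both the ATG8 proteins and the cargo. TFEB, TFE3 and MITF are related transcription factors that switch on many of these genes. Podocytes are long-lived cells that rely on a high rate of autophagy.

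Total counts lay between 45417221 and 54290968 per sample. Expression is given as CPM, the count of a gene relative to the library size scaled by TMM, and a fold change is AS over WT on the log2 scale with its standard error (SE). The adjusted p is from edgeR's quasi-likelihood test with Benjamini-Hochberg adjustment over the 16263 genes that passed the filter on low counts. Col4a3 read 938, 1052 and 1272 CPM in the WT and 62.4, 61.2 and 82.9 CPM in the AS samples, a log2 fold change of -3.98 ± 0.15 (SE, adjusted p = 1.31e-07), which matches the labels. The podocyte marker Tcf21 had no count in any of the 6 samples, a limit of 0.0209 CPM for the WT group and 0.0198 CPM for the AS group (3 counts over a group, counting error only). Nphs1 lay under 0.5 CPM in each sample, whereas Synpo and Actn4 read between 497 and 859 CPM, so that some defining markers of the labelled cell type were absent or near 0. The 11 markers summed to between 1725 and 1897 CPM in WT and between 1293 and 1379 CPM in AS podocytes, 6 of the 8 tested were lower and 1 higher, and their part in the results was not tested. The 6 markers of mesangial and smooth muscle cells summed to between 6220 and 8417 CPM in the WT samples and between 6549 and 7687 CPM in the AS samples, mostly from Acta2 (log2 fold change 0.01, adjusted p = 0.948). Of these, Pdgfrb (-1.12), Cnn1 (-1.76) and Myh11 (-2.87) were lower in AS podocytes (adjusted p = 8.71e-07, 1.06e-07 and 1.75e-05), and their part was not tested either. The WT1 sample stood apart from its group, with a chi-square per degree of freedom of 47.5 and 49.9 against the other WT samples and 9.78 between those. In bulk RNA, fewer cells of a kind and less RNA per cell cannot be told apart.

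Of the 47 genes, 46 passed the filter, and 23 of these (50%) had an adjusted p under 0.05. Among all genes tested, 40.1% were called. The calls were split in direction, with 11 genes higher and 12 genes lower in AS podocytes, where 20.4% and 19.6% of all tested genes were called. The median log2 fold change of the 46 genes was -0.03, beside 0.01 for all tested genes, and the median size of the change without its sign was 0.18, beside 0.28 for all tested genes. Only 5 of the genes were called with a change over 1.5-fold, namely Lipa (ENSMUSG00000024781.17), Neu1 (ENSMUSG00000007038.6), Ctsc (ENSMUSG00000030560.18), Uvrag (ENSMUSG00000035354.10) and Gabarapl1 (ENSMUSG00000030161.9), where 18.8% of all genes were. The CPM of the groups did not overlap in 30 of the 46 genes, or 65.2%, while this held for 52.3% of all tested genes. Summed over the 47 genes, expression was 8118 ± 131 CPM in the WT and 8563 ± 281 CPM in the AS samples (SD, n = 3 each). The parts differed in direction. The 23 lysosomal genes summed to 5681 ± 164 and 6238 ± 250 CPM, and the 21 autophagy genes to 2372 ± 62.0 and 2266 ± 38.15 CPM. The lysosomal sum includes the highly expressed Psap (1116 and 1538 CPM) and Lamp1 (662 and 863 CPM). Neither was called relative to its chromosome, as given below.

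**Figure D1:**
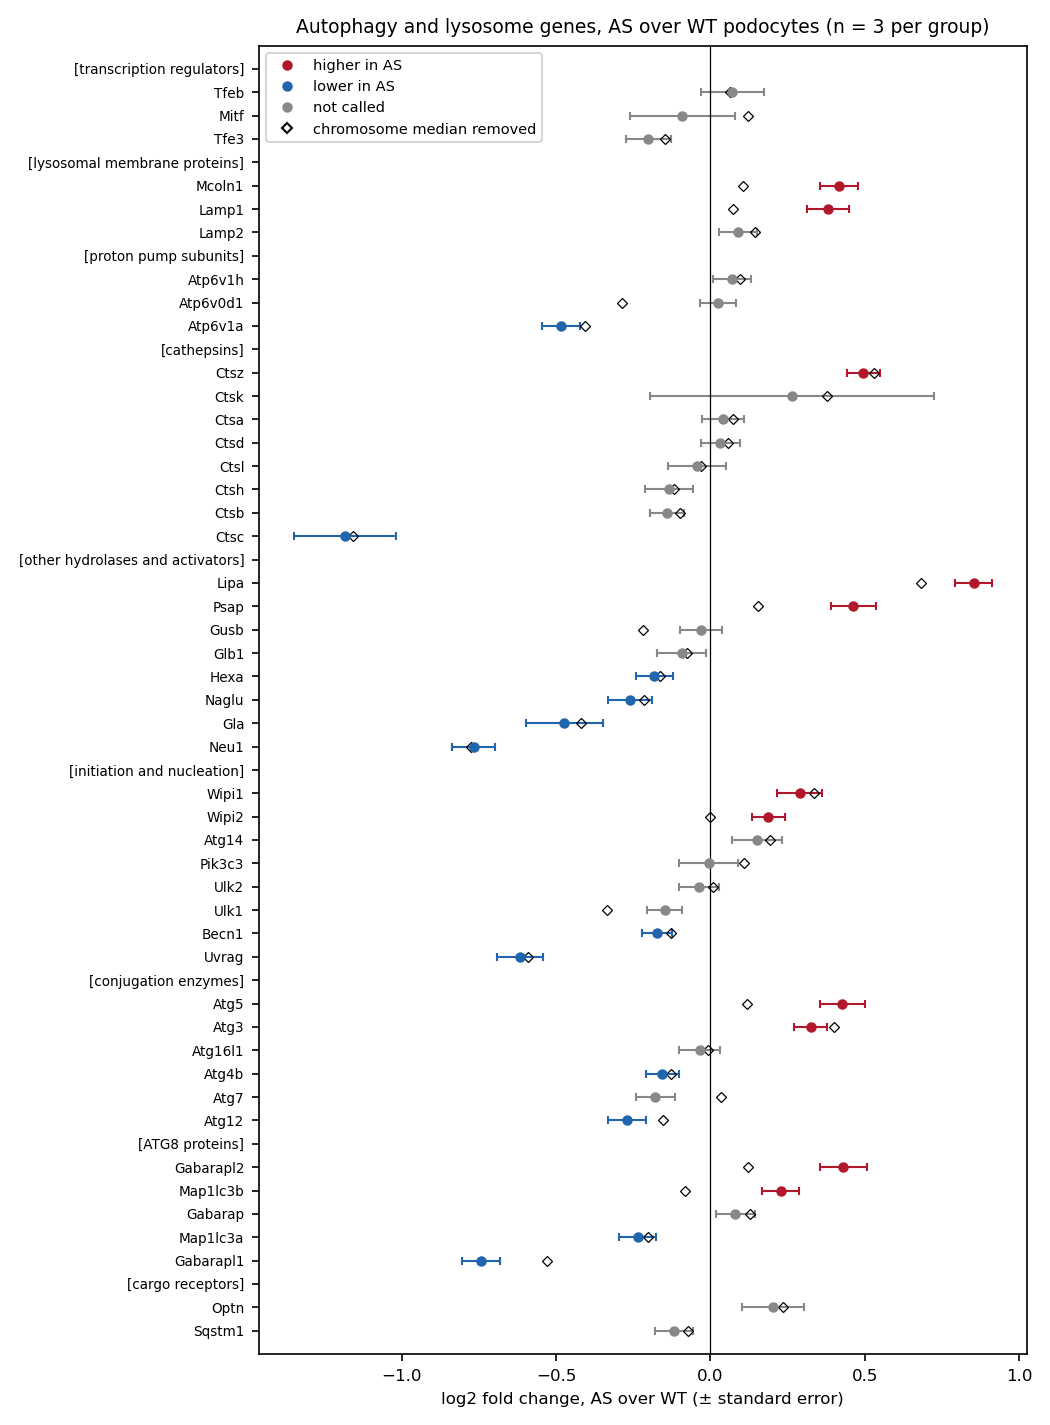
The log2 fold change of AS over WT podocytes for the 46 tested genes, with bars of 1 standard error, ordered by role. Red points are the 11 genes called higher, blue points the 12 genes called lower, and grey points the 23 genes not called, and open diamonds give the value with the chromosome median removed. Lipa at 0.85 and Ctsc at -1.18 are the ends of the range.

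Many of the genes called higher lie on chromosomes where most genes were higher in AS podocytes. Over genes with a mean log2 CPM above 2, the chromosome's median log2 fold change, less that of all such genes, was 0.31 on chromosomes 8 and 10, 0.19 on chromosomes 5 and 15, and 0.17 on chromosome 19. It was -0.21 on chromosome 6 and -0.18 on chromosome 4. On chromosome 8, 88.7% of the genes were higher in AS podocytes. The 5 upward-shifted chromosomes carry 11 of the 47 genes, of which 8 were called higher and 0 lower. In contrast, 3 were called higher and 11 lower among the 32 tested genes on chromosomes other than these and chromosomes 4 and 6. The share of all genes called on each chromosome was not computed, so these counts cannot be set against it. When the median of its chromosome was subtracted from each gene, 15 of the 46 genes were called, 4 higher (Lipa, Ctsz, Wipi1 and Atg3) and 11 lower, while 33.0% of all tested genes were called. In that fit, 12 genes kept their call with the same direction, 11 lost it and 3 gained one. Where a named gene lost its call in this way, it is stated with the gene.

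**Figure D2:**
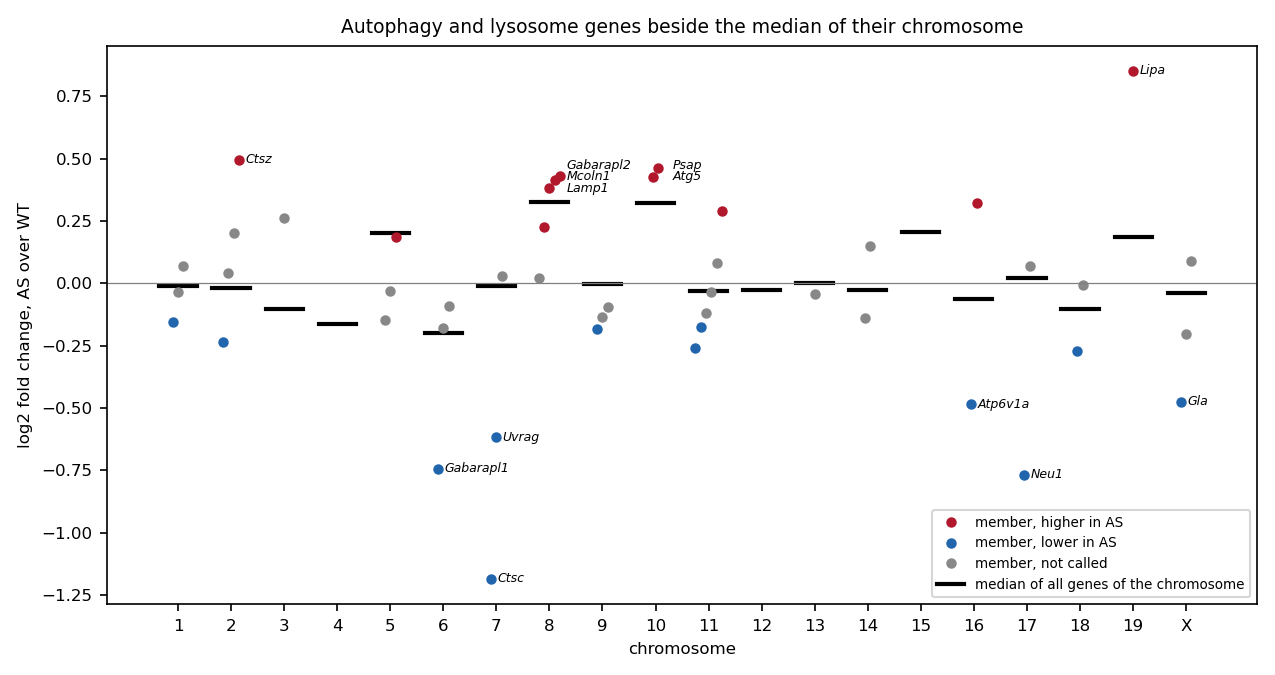
The log2 fold change of the 46 tested genes (points, coloured by call) by chromosome, with a black bar at the median of the chromosome over genes with a mean log2 CPM above 2. The genes called higher on chromosomes 5, 8 and 10 lie close to the raised bars of their chromosomes, whereas Lipa, Ctsz, Neu1, Ctsc, Uvrag and Gabarapl1 lie far from theirs.

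None of the transcription regulators was called. Tfeb, which encodes the best known activator of lysosomal genes, read 11.0, 10.5 and 9.67 CPM in the WT and 11.8, 10.5 and 10.5 CPM in the AS samples, a log2 fold change of 0.07 ± 0.10 (SE, adjusted p = 0.625). The groups overlapped. Tfe3, which encodes a close relative of TFEB, read 54.3, 46.98 and 49.2 CPM in the WT and 45, 40.9 and 45.04 CPM in the AS samples. Each AS sample lay under each WT sample, and the log2 fold change of -0.20 ± 0.07 (SE) did not reach the threshold (adjusted p = 0.0531), although it passed in 5 of the alternatives, with DESeq2 size factors (0.0454), in DESeq2 (0.0446), over genes with a mean CPM of at least 1 (0.0433), with a replicate block (0.0237) and without the WT2 sample (0.0421). Mitf, best known from pigment cells and osteoclasts, read 4.95, 5.56 and 4.53 CPM in the WT and 5.75, 4.32 and 4.07 CPM in the AS samples (log2 fold change -0.09 ± 0.17 SE, adjusted p = 0.706), and the groups overlapped. Per kb of exon, Tfe3 made up 67.2% ± 2.06 of the summed level of the 3 genes in the WT and 63.7% ± 2.13 in the AS samples (SD, n = 3 each). Tfeb made up 22.8% and 26.1%, and Mitf 10.1% and 10.2%. These shares depend on the length used. Per kb of the longest principal coding transcript, a choice made after the data were seen, Tfe3 made up 73.35% and 69.95%. Tfeb made up 21.7% and 25.0% by that length, and Mitf 4.94% and 5.06%.

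TFEB and its relatives bind the CLEAR element, whose core is TCACGTGA. Promoters from RefSeq (GRCm38.p6, 250 bases before to 50 bases after the gene start) were matched by symbol for 39 of the 47 genes. The core, which reads the same on both strands, occurred in 7 of the 39 genes, or 17.9%, and in 1.12% of the 27025 genes with a promoter in the RefSeq table. The shorter E-box CACGTG, which the core contains, occurred in 14 of the 39 genes, or 35.9%, and in 8.09% of all genes. The genes with the core did not move together: Mcoln1 and Atg3 were higher, Atp6v1a and Gla were lower, and Atp6v0d1, Ctsa and Ctsd were not called. With chromosome medians removed, Mcoln1 was not called (0.11, adjusted p = 0.214) and Atp6v0d1 was lower (-0.29, adjusted p = 0.00468). The others kept their calls. By the calls before that removal, the sequence around the core is shown for both higher genes, both lower genes and Ctsd, which was not called. Each reads 5′ to 3′ on the strand of the gene, with the core in capitals, which stands at 2 places in the Gla window. A match is a description of these letters and not a bound site.
Mcoln1 (chr8:3500423-3500530, + strand): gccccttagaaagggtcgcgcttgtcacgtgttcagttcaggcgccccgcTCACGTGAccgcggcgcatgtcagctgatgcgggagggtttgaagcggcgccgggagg
Atg3 (chr16:45158707-45158814, + strand): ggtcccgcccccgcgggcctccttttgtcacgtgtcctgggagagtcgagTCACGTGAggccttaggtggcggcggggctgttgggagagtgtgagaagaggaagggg
Atp6v1a (chr16:44139334-44139441, - strand): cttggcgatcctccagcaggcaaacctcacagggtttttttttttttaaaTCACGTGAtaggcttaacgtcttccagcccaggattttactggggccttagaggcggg
Gla (chrX:134601176-134601255, - strand): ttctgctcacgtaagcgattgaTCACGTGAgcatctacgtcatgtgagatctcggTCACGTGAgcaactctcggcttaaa
Ctsd (chr7:142387869-142387976, - strand): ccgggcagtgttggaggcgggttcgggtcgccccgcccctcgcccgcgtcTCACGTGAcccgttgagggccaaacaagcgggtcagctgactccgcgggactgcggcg

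Of the 3 lysosomal membrane proteins, 2 were higher in AS podocytes and 1 was not called, while 40.1% of all tested genes were called. Lamp1, an abundant glycoprotein of the lysosomal membrane, read 644, 712 and 632 CPM in the WT and 895, 854 and 840 CPM in the AS samples (log2 fold change 0.38 ± 0.07 SE, adjusted p = 0.00182). All AS samples were above all WT samples. Lamp2, which also serves chaperone-mediated autophagy through one of its splice forms, read 358, 362 and 334 CPM in the WT and 390, 363 and 368 CPM in the AS samples (0.09 ± 0.06 SE, adjusted p = 0.272). The groups were separate by a narrow margin, and Lamp2 was not called. Mcoln1, the lysosomal calcium channel TRPML1 that shows the core in its promoter above, read 30.9, 32.6 and 32.4 CPM in the WT and 41.7, 44.4 and 41.8 CPM in the AS samples (0.42 ± 0.06 SE, adjusted p = 0.00062). Lamp1 and Mcoln1 are both on chromosome 8, and with the chromosome medians removed neither was called (log2 fold changes 0.07 and 0.11, adjusted p = 0.454 and 0.214).

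Of the 3 proton pump subunits, Atp6v1a was lower in AS podocytes. It encodes the catalytic A subunit, which hydrolyses ATP, and read 264, 293 and 283 CPM in the WT and 208, 199 and 194 CPM in the AS samples (log2 fold change -0.48 ± 0.06 SE, adjusted p = 0.00024). The groups were well apart, and the call was kept with chromosome medians removed (-0.41, adjusted p = 0.000807). Atp6v1h, a regulatory subunit of the soluble V1 sector, had a log2 fold change of 0.07 ± 0.06 (SE, adjusted p = 0.414). Atp6v0d1, which joins the membrane sector to the stalk, had one of 0.02 ± 0.06 (SE, adjusted p = 0.783), although it is on chromosome 8, and relative to its chromosome it was lower (-0.29, adjusted p = 0.00468). Of the 16 other pump genes in the wider list, 15 were tested, and 8 were lower and 2 higher. With the 3 subunits above, 9 of 18 tested pump genes were lower and 2 higher, beside 19.6% lower and 20.4% higher among all tested genes. With chromosome medians removed the counts were 12 and 1, while 33.0% of all tested genes were called in either direction. The smallest adjusted p was that of Atp6v0e2, a small membrane-sector subunit, at 93.5 ± 2.54 CPM in the WT and 46.3 ± 2.02 CPM in the AS samples (SD, n = 3 each, log2 fold change -1.01, adjusted p = 1.46e-06). Atp6v1e1, a stalk subunit, was also lower (-0.56, adjusted p = 3.17e-05). Atp6v0c, which encodes the proteolipid of the rotor ring, was higher instead (0.60, adjusted p = 4.11e-05). The CPM of all 19 pump genes summed to 2217 ± 84.1 in the WT and 1922 ± 28.4 in the AS samples (SD, n = 3 each), and the groups did not overlap.

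**Figure D3:**
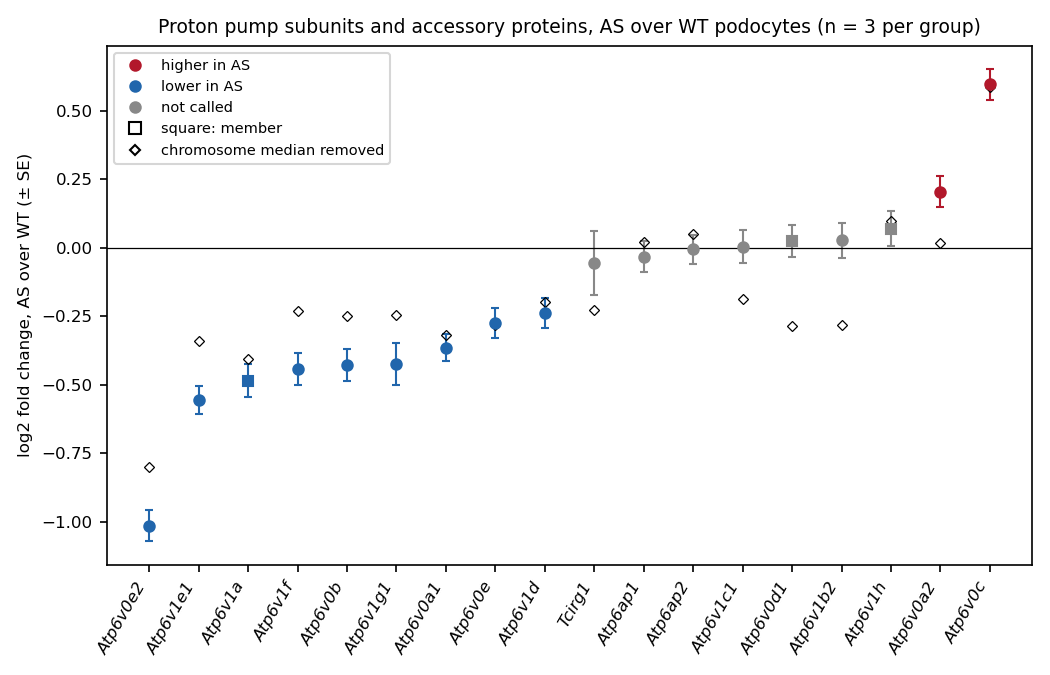
Log2 fold changes of AS over WT podocytes for the 18 tested V-ATPase genes, with bars of 1 standard error, coloured by call, with squares for the 3 genes of the set and open diamonds for values with the chromosome median removed. Blue symbols, the 9 genes called lower, reach from Atp6v0e2 at -1.01 upwards, and the red symbols are the 2 genes called higher, led by Atp6v0c at 0.60.

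Cathepsins are the main proteases of the lysosome, and 2 of the 8 tested (25%) were called, beside 40.1% of all tested genes. Ctsz, a carboxypeptidase of the papain family, read 82.8, 77.4 and 79.3 CPM in the WT and 112, 109 and 116 CPM in the AS samples (log2 fold change 0.50 ± 0.05 SE, adjusted p = 9.09e-05). Ctsc, the dipeptidyl peptidase that activates granule proteases of blood cells, read 20.3, 13.7 and 18.6 CPM in the WT and 9.19, 6.98 and 6.98 CPM in the AS samples, the largest change of the 46 genes (-1.18 ± 0.17 SE, adjusted p = 0.000468). For both genes the groups did not overlap, and both calls were kept with chromosome medians removed. By contrast, Ctsd, Ctsl and Ctsb, the cathepsins with the highest levels per kb of exon in WT podocytes, were not called. Ctsd, the aspartic protease, stood at 361 CPM per kb in the WT and 369 in the AS samples, or 51.0% ± 1.46 and 51.0% ± 1.39 of the summed cathepsin level (SD, n = 3 each). Ctsl followed at 170 and 165 CPM per kb, and Ctsb at 76.9 and 69.8. Ctsz stood at 55.4 and 78.1 and so lay above Ctsb in AS podocytes by this length. Per kb of the longest principal coding transcript, however, Ctsb stood at 98.15 in the WT and 89.06 in the AS samples. Ctsz, at 55.4 and 78.09 by that length, lay below Ctsb in both groups. The log2 fold changes were 0.03 ± 0.06 for Ctsd, -0.04 ± 0.09 for Ctsl and -0.14 ± 0.06 (SE) for Ctsb, with adjusted p of 0.73, 0.744 and 0.074. Ctsb passed the threshold in DESeq2 and limma-voom (adjusted p = 0.0364 and 0.04996). Ctsa, the protective protein that stabilises neuraminidase and β-galactosidase, had a log2 fold change of 0.04 ± 0.07 (SE, adjusted p = 0.678). It shares 495 exonic bases with Pltp on the opposite strand, which read 60.5 CPM in the WT and 165 CPM in the AS samples, and whether the counting used strand is not stated. Ctsh, an aminopeptidase, had a log2 fold change of -0.13 ± 0.08 (SE, adjusted p = 0.195), and it passed only without the WT2 sample (-0.22, adjusted p = 0.0329).

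Cathepsins known from bone and blood cells had few counts. Ctsk, the collagenase of osteoclasts, was represented by 21, 25 and 10 counts in the WT and 23, 14 and 34 counts in AS podocytes (log2 fold change 0.26 ± 0.46 SE, adjusted p = 0.687). Ctss, a protease of antigen-presenting cells, had 0 counts in each WT sample and 1, 0 and 1 counts in the AS samples, and it did not pass the filter. The macrophage markers Adgre1 and Tyrobp had no count in any sample, and the 10 genes of the macrophage list summed to between 24.2 and 28.7 CPM in the WT samples and between 31.1 and 36.8 CPM in the AS samples. Most of this came from Csf1r, which was lower (10.2 ± 1.42 and 3.82 ± 0.521 CPM, adjusted p = 9.4e-05), and Cd14, which was higher in AS podocytes (13.5 ± 2.95 and 26.7 ± 3.07 CPM, SD, n = 3 each, adjusted p = 0.000673). Their part in the results was not tested.

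Among the other hydrolases and activators, 6 of 8 genes (75%) were called, beside 40.1% of all tested genes. Lipa and Psap were higher and 4 genes lower in AS podocytes. Lipa, lysosomal acid lipase, which hydrolyses the cholesteryl esters and triglycerides that reach the lysosome, read 62.2, 68.4 and 64.1 CPM in the WT and 123, 116 and 113 CPM in the AS samples. This 1.80-fold increase was the largest of the 46 genes (log2 fold change 0.85 ± 0.06 SE, adjusted p = 5.93e-06), with all AS samples far above all WT samples. It remained when the median of chromosome 19 was removed (0.68, adjusted p = 2.49e-05). Psap, the precursor of the saposins that present sphingolipids to their hydrolases, read 1053, 1194 and 1100 CPM in the WT and 1618, 1513 and 1482 CPM in the AS samples (0.46 ± 0.07 SE, adjusted p = 0.000897). The groups did not overlap, but Psap is on chromosome 10 and was not called relative to its chromosome (0.15, adjusted p = 0.136).

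Neu1, the lysosomal sialidase, changed the other way. It read 47.04, 53.5 and 49.05 CPM in the WT and 30.1, 29.9 and 27.9 CPM in the AS samples, a 1.70-fold decrease (log2 fold change -0.77 ± 0.07 SE, adjusted p = 3.4e-05). No AS sample came near the WT range. Gla, α-galactosidase A, whose loss causes Fabry disease, with lipid storage in podocytes among other cells, was 9.39 ± 0.644 CPM in the WT and 6.76 ± 0.778 CPM in the AS samples (SD, n = 3 each, log2 fold change -0.47, adjusted p = 0.0138). Naglu, an enzyme of heparan sulfate breakdown, had a log2 fold change of -0.26 (adjusted p = 0.0177), and Hexa, the α subunit of β-hexosaminidase, one of -0.18 (adjusted p = 0.0347). The call of Gla was lost without the WT2 sample (adjusted p = 0.0513) and that of Naglu without the AS2 sample (0.062). The call of Hexa was lost when any sample but AS1 was left out (adjusted p 0.0514 without WT1, 0.0949 without WT2, 0.0557 without WT3, 0.12 without AS2 and 0.119 without AS3), with no filter on low counts (0.0613) and with chromosome medians removed (0.0584). Glb1 (β-galactosidase) and Gusb (β-glucuronidase) had log2 fold changes of -0.09 ± 0.08 and -0.03 ± 0.07 (SE, adjusted p = 0.39 and 0.747). Relative to chromosome 5, Gusb was lower (-0.22, adjusted p = 0.0346).

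**Figure D4:**
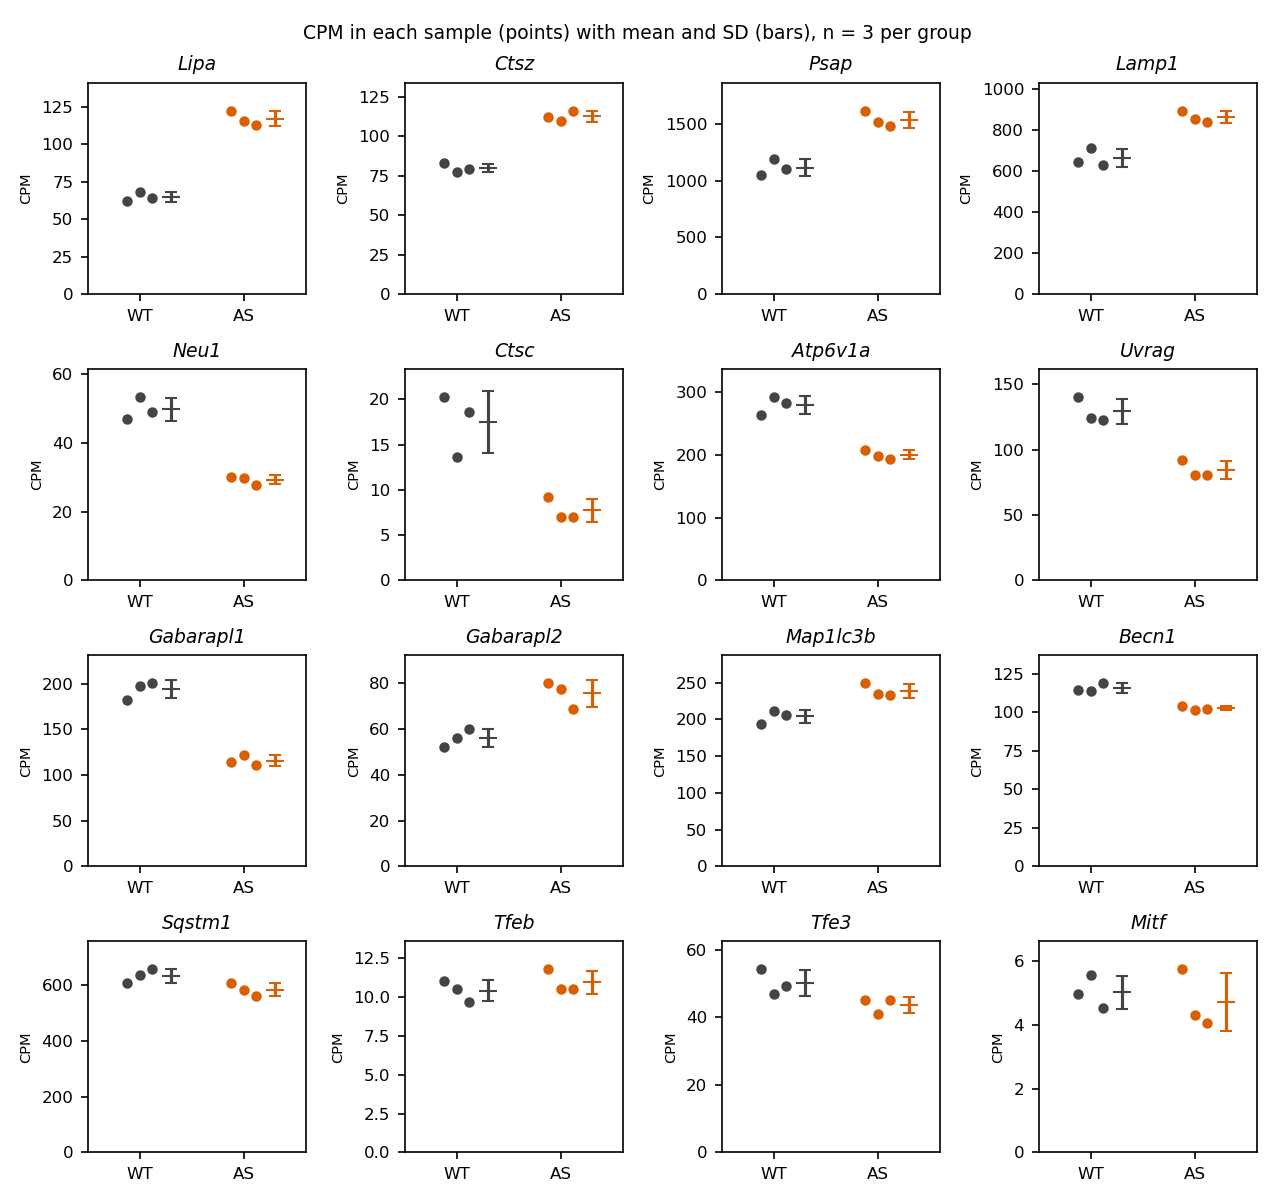
CPM in each WT and AS sample (points) for 16 genes, on linear axes from 0, with the mean and SD of each group beside them (n = 3). Lipa and Ctsz lie higher in each AS sample, Neu1, Ctsc, Uvrag and Gabarapl1 lie lower in each, and the points of Tfeb and Mitf overlap.

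Autophagosome initiation genes were called in both directions, 2 higher and 2 lower of 8 (50% called), beside 40.1% of all tested genes called. Uvrag, a subunit of one form of the class III phosphatidylinositol 3-kinase complex that acts in endosome and autophagosome maturation, read 141, 125 and 123 CPM in the WT and 92.0, 80.6 and 80.5 CPM in the AS samples (log2 fold change -0.62 ± 0.07 SE, adjusted p = 0.000194). The groups did not overlap, and the call was kept with chromosome medians removed (-0.59, adjusted p = 0.000298). Becn1, the core subunit that binds UVRAG or ATG14, read 114, 114 and 119 CPM in the WT and 104, 102 and 102 CPM in the AS samples, a small decrease (-0.17 ± 0.05 SE, adjusted p = 0.0198). Although the groups did not overlap, the call of Becn1 was lost without WT3 (adjusted p = 0.0826), AS2 (0.0646) or AS3 (0.0727), with no filter on low counts (0.0694) and with chromosome medians removed (0.0761). Atg14, which defines the form of the complex that starts autophagosomes, had a log2 fold change of 0.15 ± 0.08 (SE, adjusted p = 0.176) and passed only without WT2 (0.0484). Pik3c3, the catalytic subunit, was at 25.3 ± 2.44 CPM in the WT and 25.2 ± 2.26 CPM in the AS samples (SD, n = 3 each, adjusted p = 0.967).

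The ULK kinases start autophagy when nutrients are scarce. Ulk1 had a log2 fold change of -0.15 ± 0.06 (SE, adjusted p = 0.064), with groups that did not overlap, and it passed over genes with a mean CPM of at least 1 (0.0462) and relative to chromosome 5 (-0.33, adjusted p = 0.00167). Ulk2 had one of -0.04 ± 0.06 (SE, adjusted p = 0.692). Among the WIPI proteins, which read phosphatidylinositol 3-phosphate on the forming membrane, Wipi1 was higher in AS podocytes (0.29 ± 0.07 SE, adjusted p = 0.0114), also relative to its chromosome (0.33, adjusted p = 0.00669). Wipi2 was higher by 0.19 ± 0.05 (SE, adjusted p = 0.0206), but its log2 fold change relative to chromosome 5 was -0.00056 (adjusted p = 0.996), and its call was lost when any sample but WT1 was left out (adjusted p 0.0804 without WT2, 0.0891 without WT3, 0.0603 without AS1, 0.0621 without AS2 and 0.0755 without AS3). In the wider list of 14 initiation genes, 1 was called, which was higher, while 40.1% of all tested genes were called. This was Rb1cc1, which encodes the FIP200 scaffold of the ULK1 complex, at 206, 219 and 213 CPM in the WT and 452, 452 and 450 CPM in the AS samples (log2 fold change 1.09, adjusted p = 6.96e-07), with no overlap. Its increase exceeded that of each of the 47 genes.

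The conjugation enzymes place ATG8 proteins on membranes, and 4 of 6 (66.67%) were called, beside 40.1% of all tested genes. Atg3, the E2-like enzyme that transfers ATG8 proteins to phosphatidylethanolamine, was higher, at 64.7 ± 2.56 CPM in the WT and 81.0 ± 1.77 CPM in the AS samples (SD, n = 3 each, log2 fold change 0.32 ± 0.05 SE, adjusted p = 0.00133). It remained higher relative to its chromosome (0.40, adjusted p = 0.000462). Atg5 and Atg12 encode the pair of proteins that are joined to each other, and they were called in opposite directions. Atg5 rose from 27.1 ± 2.00 to 36.5 ± 1.01 CPM (log2 fold change 0.43, adjusted p = 0.00132), and Atg12 fell from 78.6 ± 5.32 to 65.2 ± 1.55 CPM (-0.27, adjusted p = 0.00747, SD, n = 3 each). Neither was called with chromosome medians removed (adjusted p = 0.239 and 0.0896). Atg4b, the protease that trims ATG8 proteins, was lower by a small margin (-0.16, adjusted p = 0.0428). Its call was lost without WT2 (0.122), WT3 (0.0807), AS1 (0.0744), AS2 (0.122) or AS3 (0.0957) with a replicate block (0.05004), with library size only (0.0949), with no filter on low counts (0.15) and with chromosome medians removed (0.095). Atg7, the E1-like enzyme, had a log2 fold change of -0.18 ± 0.06 (SE, adjusted p = 0.052), which passed with DESeq2 size factors (0.0463) and over genes with a mean CPM of at least 1 (0.0379). Atg16l1, the partner of the ATG12-ATG5 conjugate, had one of -0.04 ± 0.07 (SE, adjusted p = 0.717).

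The ATG8 proteins coat the autophagosome and form the LC3 and GABARAP subfamilies, and in both the genes were called in opposite directions. Gabarapl1 read 183, 198 and 201 CPM in the WT and 114, 122 and 111 CPM in the AS samples, a 1.67-fold decrease (log2 fold change -0.74 ± 0.06 SE, adjusted p = 1.92e-05). No values overlapped, and it remained lower relative to chromosome 6 (-0.53, adjusted p = 0.000182). Gabarapl2 read 52.0, 56.2 and 59.9 CPM in the WT and 80.2, 77.6 and 68.8 CPM in the AS samples (0.43 ± 0.08 SE, adjusted p = 0.00176). The AS samples were all higher, but relative to chromosome 8 Gabarapl2 was not called (0.12, adjusted p = 0.257). Gabarap did not pass the test (0.08 ± 0.06 SE, adjusted p = 0.334).

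Map1lc3b, which encodes the LC3B protein used as a marker of autophagosomes, read 194, 212 and 206 CPM in the WT and 250, 234 and 232 CPM in the AS samples (log2 fold change 0.23 ± 0.06 SE, adjusted p = 0.0134). All AS samples were above all WT samples. The call was lost without AS1 (0.185, adjusted p = 0.0664), and relative to chromosome 8 the sign was the opposite (-0.08, adjusted p = 0.323). Its exons share 58 bases with Zcchc14 on the other strand, which read 60.1 CPM in the WT and 98.0 CPM in the AS samples. Map1lc3a was lower, at 61.2 ± 3.34 CPM in the WT and 52.0 ± 1.05 CPM in the AS samples (SD, n = 3 each, -0.24, adjusted p = 0.0119), a call that was lost without AS3 (adjusted p = 0.0539).

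As a share of the length-scaled level of the 5 ATG8 genes, Gabarapl1 made up 30.1% ± 0.596 in the WT and 19.6% ± 0.585 in the AS samples (SD, n = 3 each). Gabarap made up 37.7% and 43.6%, and Gabarapl2 made up 7.52% and 11.1%. Shares add up to a fixed whole, so a lower share of Gabarapl1 raises those of the other genes. Gabarap itself stood at 120.9 and 127.9 CPM per kb and was not called. The shares depend on which length is used. With the union of exons, Map1lc3b made up 8.47% in the WT and 10.8% in the AS samples, and with the longest principal coding transcript, a choice made after the data were seen, 18.3% and 22.2%. Map1lc3a made up 16.2% and 15.0% by the former length and 12.5% and 11.0% by the latter. The CPM of the 5 genes summed to 738 ± 30.6 in the WT and 718 ± 18.0 in the AS samples (SD, n = 3 each), and the groups overlapped.

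**Figure D5:**
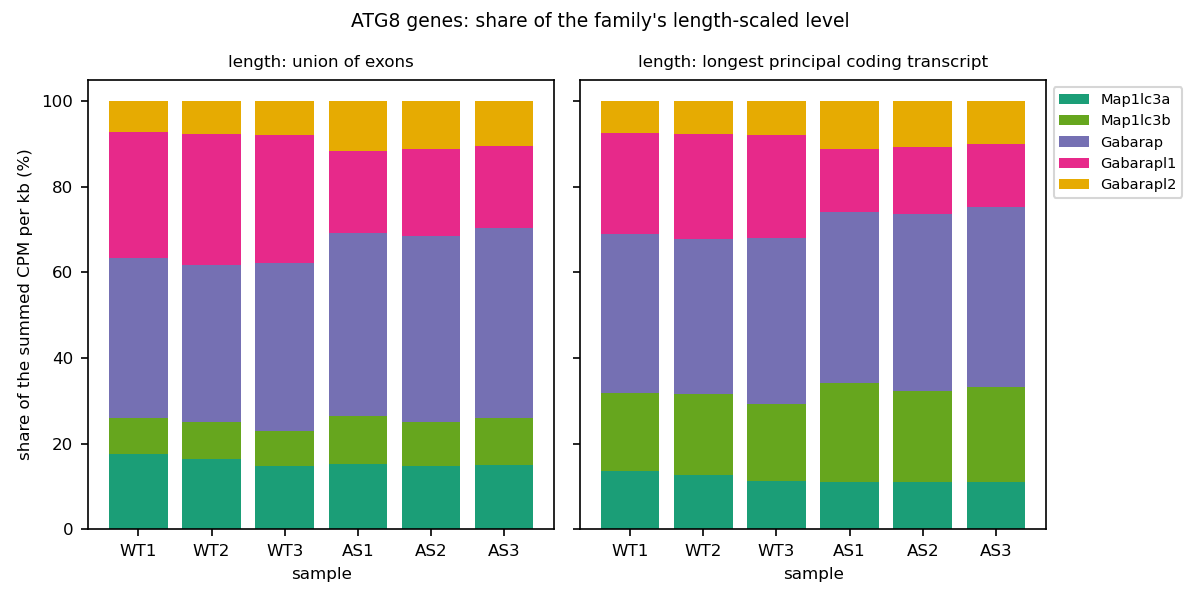
Share of each ATG8 gene in the summed CPM per kb of the 5 genes, in percent, for each sample, with the union of exons (left) and the longest principal coding transcript (right) as the length. The Gabarapl1 band is narrower in the 3 AS samples in both panels, and the order of Map1lc3a and Map1lc3b differs between the panels.

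The cargo receptors were not called. Sqstm1, which encodes p62, the receptor for ubiquitinated cargo that is itself degraded by autophagy, read 607, 635 and 657 CPM in the WT and 605, 583 and 561 CPM in the AS samples (log2 fold change -0.12 ± 0.06 SE, adjusted p = 0.159). The lowest WT sample was only just above the highest AS sample. Optn, a receptor for damaged mitochondria and bacteria, read 14.8, 12.6 and 15.3 CPM in the WT and 17.5, 15.7 and 16.0 CPM in the AS samples (0.20 ± 0.10 SE, adjusted p = 0.136), again without overlap. In the wider list of 11 receptors, 3 were higher and 2 lower (45.45% called), beside 40.1% of all tested genes called. Ncoa4, the ferritin receptor, was higher (0.34, adjusted p = 0.000678), as was Calcoco1 (0.31, adjusted p = 0.00114), a receptor for the endoplasmic reticulum, while Tax1bp1 was lower (-0.24, adjusted p = 0.00561). With chromosome medians removed, Calcoco1 and Tax1bp1 were no longer called (0.12 and -0.025, adjusted p = 0.0992 and 0.748), and 1 gene of the list was higher and 1 lower.

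Of the 138 tested genes in the 9 wider lists, 58 (42.0%) were called, 31 higher and 27 lower, beside 40.1% of all tested genes called, 20.4% higher and 19.6% lower. The median log2 fold change was 0.01. With chromosome medians removed, 21 were higher and 24 lower, so that the balance of direction turned, while 33.0% of all tested genes were called. Hydrolases and activators outside the set were called higher in 10 and lower in 3 of 31 genes, and in 7 and 5 with chromosome medians removed. Arsa, which degrades sulfatides, was at 31.1 ± 1.18 CPM in the WT and 57.9 ± 3.17 CPM in the AS samples (SD, n = 3 each, log2 fold change 0.89, adjusted p = 8.09e-06). Aga and Man2b1, which act on glycoproteins, were higher by 0.58 (adjusted p = 5.23e-05) and 0.57 (adjusted p = 0.000278), and all these genes were also called higher relative to their chromosomes (adjusted p = 3.95e-05 for Arsa, 0.0053 for Aga and 0.0215 for Man2b1).

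Among the other lysosomal membrane genes, 6 of 19 were higher and 1 lower (36.84% called), beside 40.1% of all tested genes called. With chromosome medians removed, 3 were higher and 2 lower, while 33.0% of all tested genes were called. Scarb2, which encodes LIMP-2, the sorting receptor for glucocerebrosidase whose loss causes kidney disease with podocyte injury, was at 91.6 ± 3.22 CPM in the WT and 183 ± 9.93 CPM in the AS samples (SD, n = 3 each, log2 fold change 1.00, adjusted p = 2.21e-06). Tmem192 was higher (0.49, adjusted p = 0.00154) and Laptm4b lower (-0.39, adjusted p = 0.00177), and Tmem192 was not called relative to chromosome 8 (0.18, adjusted p = 0.138). The receptors that sort hydrolases by their mannose 6-phosphate tag were called in opposite directions. Igf2r, the large receptor, was at 106 ± 14.0 CPM in the WT and 216 ± 28.2 CPM in the AS samples (1.02, adjusted p = 0.000116), and M6pr, the small one, was at 200 ± 11.1 and 131 ± 5.44 CPM (-0.61, adjusted p = 6.09e-05, SD, n = 3 each). Vps26a, a subunit of the retromer that returns receptors to the Golgi, was higher (0.50, adjusted p = 0.000243). In all, 4 of the 9 sorting genes were higher and 2 lower (66.67% called), or 2 and 1 with chromosome medians removed.

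Genes that sense nutrients at the lysosome were called higher in 3 and lower in 6 of 21. That is 42.9%, beside 40.1% of all tested genes. With chromosome medians removed, 4 were higher and 2 lower, while 33.0% of all tested genes were called. Prkaa2, a catalytic subunit of AMP-activated kinase, was lower (-0.46, adjusted p = 0.000298), as was Rraga, a Rag GTPase (-0.30, adjusted p = 0.00151), whereas Rheb, the GTPase that activates mTORC1, was higher (0.38, adjusted p = 0.00107). Relative to chromosome 4, Rraga was not called (-0.12, adjusted p = 0.0961). Of the genes for fusion with the lysosome, 2 of 13 were higher and 5 lower (53.85% called). With chromosome medians removed, 2 of them were higher and 2 lower. Stx17, the syntaxin of the mature autophagosome, was lower (-0.46, adjusted p = 0.000223), as was Plekhm1, an adaptor that binds RAB7 and ATG8 proteins (-0.42, adjusted p = 0.000422). Vps33a, a subunit of the tethering complexes, was higher (0.40, adjusted p = 0.000884). None of the 5 wider conjugation genes was called by edgeR, and 0 had an unadjusted p under 0.05.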

How the data were processed

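RNA from 3 WT and 3 AS podocyte samples was analysed from whole-number counts of reads per gene, which the authors deposited without normalization. The submitters' processing notes name FastQC, Trim Galore, STAR, edgeR and the mm39 build, without versions, and the libraries had 15 cycles of PCR. No source used here states the strand setting or the annotation release. Of 57132 identifiers, 51880 matched GENCODE M21 (GRCm38) without their version, which was used for symbols, chromosomes and lengths only.

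Counts were filtered with filterByExpr (minimum count 10, minimum total 15), scaled by TMM and tested two-sided with edgeR 4.0.16 (quasi-likelihood, genotype as the only term) in R 4.3.3, with Benjamini-Hochberg adjustment over 16263 genes. The SE was approximated from the log2 fold change and the F statistic. The scripts were tested on simulated data. Depth was 45417221 to 54290968 counts per sample, and limits for 0 counts (3 counts over a group) cover counting error only. Exact permutation of 3 against 3 samples cannot go below p = 0.1.

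Genes and lists were chosen with earlier results of these data known. Values in every sample were given for genes with an adjusted p under 0.05 and a log2 change of at least 0.5, and always for Tfeb, Tfe3, Mitf, Lamp1, Lamp2, Map1lc3b, Sqstm1 and Becn1. Those of Mcoln1, Atp6v1a, Ctsz, Ctsk, Ctss, Psap, Gabarapl2, Optn and Rb1cc1 were added after the values were seen. Up to 3 called genes with the smallest adjusted p are named per wider list. Alternatives were DESeq2 1.42.0, its size factors, limma-voom (limma 3.58.1), library size only, no filter, a mean CPM of at least 1, an adjusted p under 0.01, a fold over 1.5, chromosome medians removed, a replicate block, each sample left out, and another transcript length.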

Additional observations from a re-analysis of the deposited data

How the results depend on the processing

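Under RLE size factors, library size only, DESeq2, limma-voom, no filter, a mean CPM of at least 1 and a replicate block, between 20 and 26 of the 46 genes were called, beside 23. Leaving out 1 sample at a time gave 18 to 22, with 9 to 11 higher and 8 to 11 lower. With chromosome medians removed 15 were called, 4 of them higher, at an adjusted p under 0.01 there were 14, and with a change over 1.5-fold 5. Set numbers gave correlations of 0.147, 0.0939 and 0.0526 between same-numbered samples and -0.13 to 0.0571 between others. WT1 and WT2 correlated best with the AS sample of the same number, and WT3 by a narrow margin with AS2. These values do not settle whether the sets are pairs, and the main fit held genotype only. The replicate block left 23 calls, 11 higher and 12 lower, with 36 and 28 in the wider lists beside 31 and 27.

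Of 643 alternative values for the 46 genes, 573 kept direction and side of the threshold. With the direction kept, 36 lost the threshold and 14 gained it. The other 20 changed sign and were counted so on either side of the threshold. Among these, with chromosome medians removed, Wipi2 and Map1lc3b also lost the threshold and Atp6v0d1 gained it. With chromosome medians removed, the log2 fold change was 0.12 for Mitf, -0.29 for Atp6v0d1, 0.0092 for Ulk2, 0.11 for Pik3c3, -0.00056 for Wipi2, 0.035 for Atg7 and -0.083 for Map1lc3b, and with library size only it was 0.022 for Pik3c3. With single samples left out, values that crossed 0 ranged from -0.27 to 0.0065 for Mitf, -0.017 to 0.070 for Atp6v0d1, -0.021 to 0.095 for Ctsa, -0.013 to 0.065 for Ctsd, -0.021 to 0.55 for Ctsk, -0.099 to 0.054 for Ctsl, -0.092 to 0.024 for Gusb, -0.085 to 0.066 for Pik3c3 and -0.063 to 0.00088 for Atg16l1. The cause was not tested. In the main fit, none of these genes but Wipi2 and Map1lc3b was called. With chromosome medians removed, Atp6v0d1 and Gusb were called lower (adjusted p = 0.00468 and 0.0346). Ctsk and Ctss had few or no counts in both groups, and the reason was not tested.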
